A study of Mus musculus with 18 samples.

Results

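Hypothalamus RNA of diet-induced obese (DIO) mice treated with TN-783, which inhibits NLRP3, was set against that of lean mice. The libraries were chosen by their titles, 6 of TN-783-treated obese mice and 6 of lean controls, which gave 12 of the 18 libraries of the series, and all genes of the count table were used. All animals were male wild-type C57BL/6JGpt mice, listed as 7 months old in the deposited sample table. Obese mice had eaten fat-rich food from 6 weeks of age for 16 weeks or more, had been accustomed to vehicle gavage for 14 days, and then received TN-783 at 50 mg/kg by gavage 2 times a day. Dosing is given as 29 days in the labels and as 28 days in the deposited table. Lean controls of the same background, sex and age ate chow and received no drug, and the labels do not say whether they were gavaged with vehicle beforehand. Diet, dosing and drug therefore differ together between the 2 groups and cannot be told apart here. The remaining 6 libraries, from obese mice given vehicle for the same period, are quoted beside the results because they shared the diet and gavage of the treated mice.

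The hypothalamus regulates feeding and energy use through neurons that release peptides such as agouti-related peptide and neuropeptide Y, which promote feeding, and products of Pomc and Cartpt, which restrain it. NLRP3 senses cell stress in myeloid cells such as microglia and assembles an inflammasome in which caspase-1 matures interleukin-1 beta and interleukin-18. Glucocorticoids, whose release the hypothalamus governs, act through a nuclear receptor that binds DNA and induces genes such as Sgk1, Tsc22d3 and Fkbp5. Fat-rich feeding has been linked in mice to inflammatory signalling and gliosis in the hypothalamus.

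Library totals were 2070040 to 3695780 estimated counts in lean mice and 1993530 to 3589790 in TN-783 mice, and RNA integrity numbers were 9.4 to 10.0 and 9.6 to 9.7. The defining peptide genes of the hypothalamus were detected in every library, and Pmch, the melanin-concentrating hormone gene, was at 95.1 CPM, counts scaled to a fixed library total, or more before filtering. Pituitary transcripts were low in the 12 libraries, with prolactin (Prl) at 4.53 CPM or less in lean and 29.9 CPM or less in TN-783 mice, against a maximum of 1750 CPM in the vehicle group. Lean replicate 6 stood apart from its group, and its RNA integrity number of 10.0 was the highest of the 12. On the first principal component of the 12 libraries, which held 31.3% of the variance, it lay at -36.3, with the other lean controls at 11 to 29.5 and the TN-783 libraries between -29.2 and 6.13. TN-783 replicates 1 and 4, at -29.2 and -29.0, lay nearest to it, so this component did not follow the groups alone. Leaving out lean replicate 6 while keeping those TN-783 libraries can widen group differences along it. For most gene lists, calls are given with and without lean replicate 6.

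The comparison addresses how far the hypothalamus of treated obese mice differed from that of lean mice. No gene passed the threshold: 0 of 11835 genes tested (0%) had an adjusted p under 0.05 in edgeR's quasi-likelihood test with Benjamini-Hochberg adjustment, and the smallest adjusted p was 0.190. Unadjusted p was under 0.05 in 966 genes, 451 with higher estimates in TN-783 mice (3.81% of those tested) and 515 with lower ones (4.35%). The median difference over all genes was -0.00 on the log2 scale, the median size of a difference was 0.15 and the median standard error was 0.17. In 26 genes (0.22%) all 6 TN-783 libraries lay above all 6 lean libraries, and in 22 genes (0.186%) all lay below. DESeq2 called 11 genes (0.0929%), 10 of them higher, and limma voom with sample weights called 4, all higher. A fit of the lean and TN-783 groups alone called 5 of 11411 genes (0.0438%), which were the 4 haemoglobin genes and Cables1.

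The count of calls depended on lean replicate 6 and the vehicle group together. With the 2 groups alone and that library left out, an alternative chosen after the data were seen, 748 of 11588 genes passed (6.45%), of which 432 were higher (3.73%) and 316 lower (2.73%) in TN-783 mice. Of 61 genes chosen for naming 29 passed there, 19 higher and 10 lower, with adjusted p of 0.00677 to 0.0494, and that share is no measure of all genes because they were chosen largely by their p. Passing genes described below were Cables1, Sgk1, Egr1, Tsc22d3, Trak1, Fkbp5, Klf9, Klf15, Hsd11b1, Plekhf1, Pmch, H2-K1, Aspa, Rpl18, Hba-a1 and Hbb-bs as higher and Col1a1, Slc26a2, Dync2h1, Tpm3-rs7, Tia1, Malat1, Wnt5a and Elavl4 as lower. In some lists below, the omitted library was the control farthest toward the treated mice. Leaving it out favours calls in those lists, so their shares of calls are descriptions only. Leaving out lean replicate 6 while the vehicle group stayed in the fit gave 0 calls. Cables1, Sgk1, Dync2h1 and Hsd11b1 each narrowly missed the threshold in that fit (edgeR adjusted p = 0.0502). Without lean replicate 6, non-overlapping genes numbered 255 higher (2.13% of 11984) and 225 lower (1.88%). Below, a gene is said to have passed only where the fit is named, and all other values are estimates that missed the threshold. TN-783 and vehicle mice, fitted the same way, differed in 0 of 11835 genes (0%), with 309 at an unadjusted p under 0.05 and 0 called by DESeq2 or voom. Comparisons of each obese group with lean mice use the same 6 lean libraries, and those of TN-783 mice use the same 6 treated libraries, so their values are set side by side only.

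**Figure D1:**
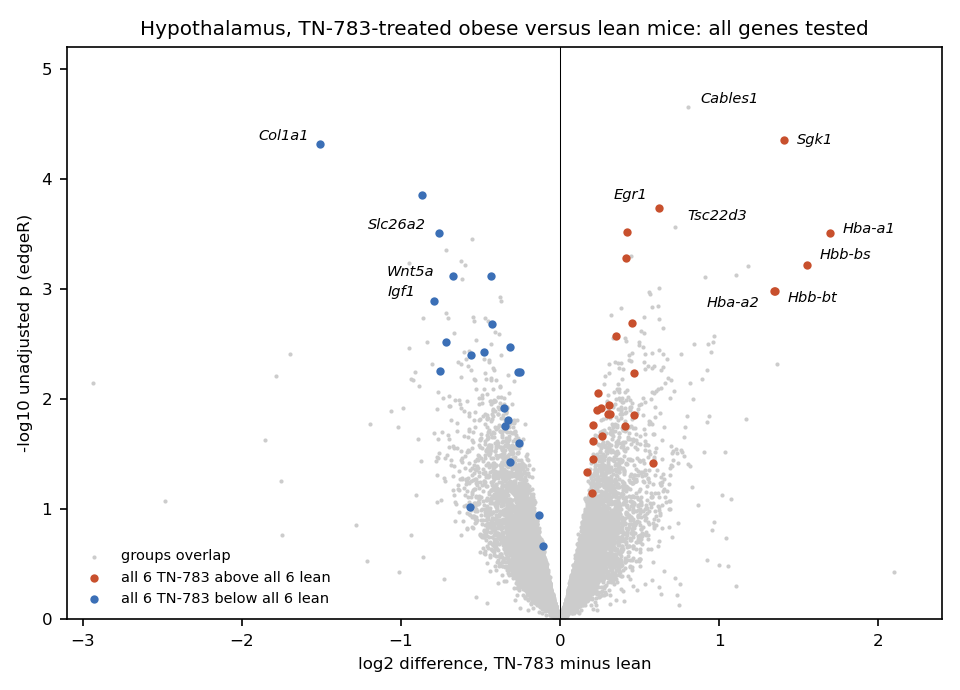
Each point is a gene, with the log2 difference of TN-783 minus lean mice on the horizontal axis and -log10 of the unadjusted edgeR p on the vertical axis. Red points are the 26 genes with all 6 TN-783 libraries above all 6 lean libraries and blue points the 22 with all below; Sgk1, Cables1 and Col1a1 reach the top of the plot, and 0 genes passed after adjustment.

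Glucocorticoid-response genes had the highest list median outside blood and the anterior pituitary. Of 16 tested genes in the list, 15 had higher estimates in TN-783 mice, with a median log2 difference of 0.42, beside 49.1% of all genes higher and a median of -0.00. The median was 0.28 without lean replicate 2. It was 0.40 without lean replicate 6 and the vehicle group, where 4 of the 16 passed as higher (Sgk1, Fkbp5, Tsc22d3 and Klf9), against 3.73% of all genes. In the 3-group fit 0 of 16 passed, and 6 of 16 had an unadjusted p under 0.05. Mean log2 CPM over the list lay between 4.59 and 5.51 in lean libraries, between 5.26 and 5.67 in TN-783 libraries and between 5.35 and 5.70 in vehicle libraries.

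Promoter sequences of this list were searched for GNACANNNTGTNC, a palindromic core of the glucocorticoid receptor element that reads alike on both strands, as the only motif searched. In the RefSeq promoter table (GRCm38.p6), which spans 250 bases before to 50 bases after each start, 156 of 32851 promoters held it (0.475%). Of the 25 promoters found for 15 of the 16 tested genes, 2 held it, 1 of the 6 listed for Sgk1 and that of Mt1, a metallothionein that binds zinc. They are shown because Sgk1 led the list while Mt1 did not (log2 difference 0.16, SE 0.14). The 250 bases before each start are printed on the plus strand, at chr10:21993640-21993889 for Sgk1 and chr8:94178839-94179088 for Mt1, with the match in capitals, which begins at position -188 and -94 from the start. A match describes the letters only and says nothing of binding in these samples.
Sgk1: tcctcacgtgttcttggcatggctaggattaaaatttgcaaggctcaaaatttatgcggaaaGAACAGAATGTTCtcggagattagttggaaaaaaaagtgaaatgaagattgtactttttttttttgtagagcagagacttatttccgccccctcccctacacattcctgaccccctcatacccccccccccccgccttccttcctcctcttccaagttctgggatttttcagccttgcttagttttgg
Mt1: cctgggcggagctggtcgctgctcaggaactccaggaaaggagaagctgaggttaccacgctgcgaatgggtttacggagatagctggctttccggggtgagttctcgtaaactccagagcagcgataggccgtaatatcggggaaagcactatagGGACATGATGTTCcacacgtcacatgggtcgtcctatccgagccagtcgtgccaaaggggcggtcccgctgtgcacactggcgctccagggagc

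Sgk1 (ENSMUSG00000019970), a kinase that regulates ion channels and transporters, lay between 11.5 and 42.0 CPM in lean libraries (median 23.7) and between 46.2 and 92.3 CPM in TN-783 libraries (median 65.7). The groups did not overlap. Lean replicates 1 to 3 were at 11.5 to 16.2 CPM, and lean replicates 4 to 6, at 31.2 to 42.0 CPM, lay closer to the treated libraries. Vehicle libraries lay between 72.6 and 113 CPM (median 84.0). The log2 difference of TN-783 minus lean was 1.41 (SE 0.27, edgeR adjusted p = 0.190), and that of vehicle minus lean was 1.75 (adjusted p = 0.0315), the only gene of 11835 called there (0.00845%). TN-783 minus vehicle was -0.35, with a 95% interval of -0.86 to 0.17. DESeq2, voom, the fit with RNA integrity and the fit without lean replicate 6 and the vehicle group each called Sgk1 higher in TN-783 than in lean mice, with adjusted p between 0.00014 and 0.0386.

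Tsc22d3, which encodes the anti-inflammatory leucine zipper protein GILZ, was at 73.8 to 180 CPM in lean libraries (median 119) and 171 to 252 CPM in TN-783 libraries (median 199). TN-783 minus lean was 0.72 (log2, SE 0.17, edgeR adjusted p = 0.406), and it lay at 157 to 244 CPM in vehicle libraries. Every TN-783 library lay above the lean median, and the groups overlapped at their edges. Fkbp5, a co-chaperone that restrains the glucocorticoid receptor, was at 9.08 to 14.5 CPM in lean libraries, 13.5 to 21.0 CPM in TN-783 libraries and 11.6 to 37.9 CPM in vehicle libraries, with a log2 difference from lean of 0.54 (SE 0.23, edgeR adjusted p = 0.611). Nfkbia, the NF-kB inhibitor that glucocorticoids also induce, differed by 0.45 (SE 0.16), and Nedd9, a scaffold protein, by 0.56 (SE 0.22). Dusp1, a phosphatase of MAP kinases, was the member with a lower estimate (-0.15, SE 0.24).

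Klf9 of this list, and Klf15, Hsd11b1 and Plekhf1 outside it, were named after their values were seen. Klf9, a transcription factor, was at 172 to 250 CPM in lean libraries (median 214) and 233 to 352 CPM in TN-783 libraries (median 289), a log2 difference of 0.45 (SE 0.11, edgeR adjusted p = 0.406; DESeq2 0.0297). Klf15, a related factor, differed by 0.61 (SE 0.17). Hsd11b1, the enzyme that regenerates active glucocorticoid in cells, was at 4.76 to 15.1 CPM in lean and 10.0 to 21.2 CPM in TN-783 libraries. TN-783 minus lean was 0.91 (log2, SE 0.24, edgeR adjusted p = 0.421) with lean replicate 6 as the highest control, and 1.10 (SE 0.21, adjusted p = 0.00739) without that library and the vehicle group. Plekhf1, an endosomal protein gene, was at 1.49 to 4.52 CPM in lean, 2.95 to 6.48 CPM in TN-783 and 5.56 to 9.35 CPM in vehicle libraries, with a log2 difference from lean of 1.11 (SE 0.29). TN-783 minus vehicle was near 0 for Klf9 (-0.01, 95% interval -0.24 to 0.22) and Klf15 (0.00, interval -0.34 to 0.35). A p that missed the threshold does not show these groups to be alike.

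Cables1, a protein that links Cdk5 to the Abl kinase, had the smallest p of all genes. It was at 52.0 to 89.0 CPM in lean libraries (median 60.3) and 85.4 to 134 CPM in TN-783 libraries (median 111). Only the edges of the groups overlapped. The log2 difference was 0.80 (SE 0.15, edgeR adjusted p = 0.190), and vehicle libraries lay at 71.7 to 126 CPM. DESeq2, voom, the fit with RNA integrity and the fit of the 2 groups alone each called it, with adjusted p between 0.00191 and 0.0386. Egr1, an immediate early transcription factor, was at 24.7 to 39.7 CPM in lean and 40.8 to 58.0 CPM in TN-783 libraries, which did not overlap, a log2 difference of 0.62 (SE 0.14, edgeR adjusted p = 0.406). The immediate early list, which holds Egr1, was divided, with 9 of 16 higher and a median of 0.02 that changed sign in 4 of 32 alternatives (-0.07 without lean replicate 1); Fos differed by -0.05 (SE 0.26) and Junb by -0.46 (SE 0.20). Trak1, an adaptor for mitochondrial transport, lay at 75.0 to 92.1 CPM in lean and 97.6 to 140 CPM in TN-783 libraries, also without overlap (log2 0.42, SE 0.10).

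**Figure D2:**
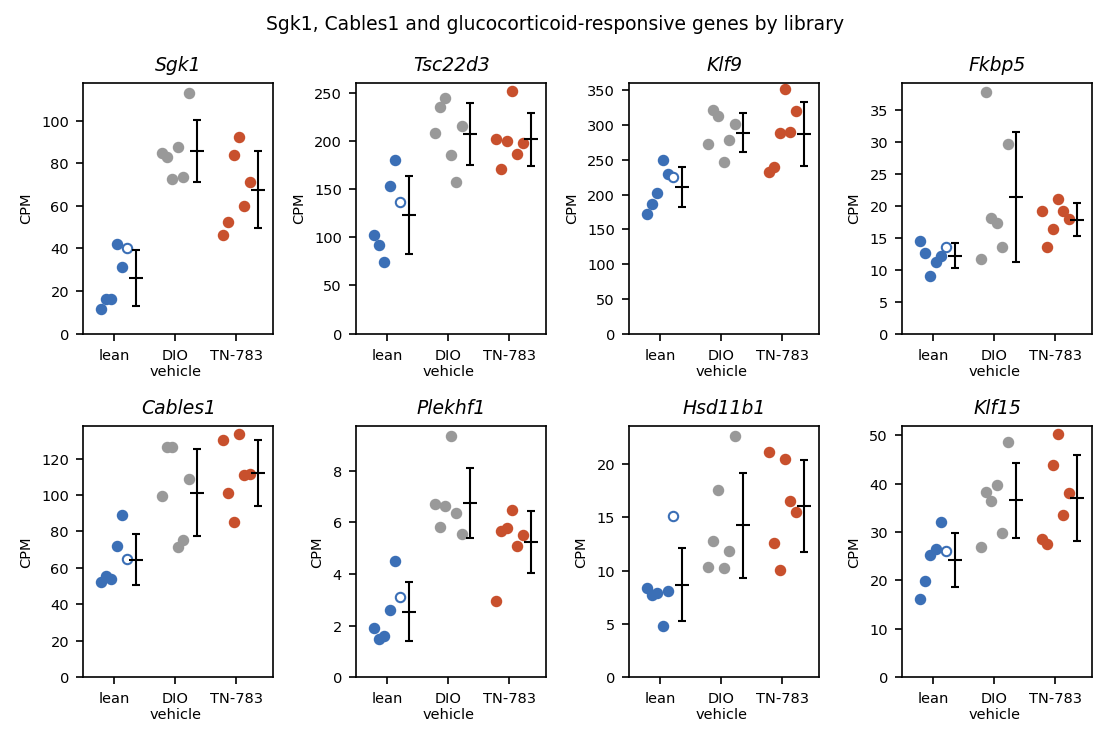
Each panel shows the CPM of a gene in 6 lean, 6 DIO vehicle and 6 TN-783 libraries, with the mean and SD as a black bar and lean replicate 6 as an open circle. Sgk1 lay at 46.2 to 92.3 CPM in TN-783 mice, above the lean maximum of 42.0 CPM, and Cables1 at 85.4 to 134 CPM against a lean maximum of 89.0 CPM.

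Haemoglobin transcripts took a larger share of counts in TN-783 than in lean mice. The share was 0.0362% to 0.0722% in lean libraries (0.0552% ± 0.0148, SD, n = 6) and 0.109% to 0.201% in TN-783 libraries (0.146% ± 0.0341, SD, n = 6). The groups did not overlap, and a two-sided exact permutation test of these libraries gave p = 0.00216, the smallest it allows, and 0.0152 after adjustment over 7 library measures. The adjusted p was the same with each library left out in turn. That adds no support, because groups that do not overlap stay apart and the test again returns its smallest p. Vehicle libraries ranged from 0.0319% to 0.223%. These transcripts are abundant in red blood cells, but the cells they came from were not identified here. In bulk tissue more cells of a type and more RNA per cell cannot be told apart, and the part of blood in the other results was not tested. Of the other 6 library measures, each had an adjusted p of 0.432 or more.

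All 4 tested haemoglobin genes (of 7 in the table for the blood list) were higher without overlap, against 0.22% of all genes tested. Hba-a1, an alpha chain, was at 35.9 to 63.6 CPM in lean libraries (median 55.3), 122 to 254 CPM in TN-783 libraries (median 154) and 22.9 to 199 CPM in vehicle libraries (median 148). Its log2 difference from lean was 1.70 (SE 0.37, edgeR adjusted p = 0.406), and vehicle replicate 5 held the lowest value of all 18 libraries. Hbb-bs, a beta chain, was at 123 to 279 CPM in lean and 516 to 932 CPM in TN-783 libraries, a log2 difference of 1.55 (SE 0.36). Hba-a2 and Hbb-bt differed by 1.34 and 1.35. With the vehicle group out of the fit, or without vehicle replicate 5, all 4 were called (Hba-a1 edgeR adjusted p = 0.000644 and 0.00118). These fits called 5 of 11411 (0.0438%) and 5 of 11974 genes in all. Haemoglobin genes are near-identical copies, so counts could be split between them.

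Both type I collagen genes had lower estimates. Col1a1, the alpha 1 chain of type I collagen, was at 6.32 to 15.1 CPM in lean libraries (median 10.3) and 1.28 to 5.27 CPM in TN-783 libraries (median 3.72). The groups did not overlap, and the log2 difference was -1.50 (SE 0.31, edgeR adjusted p = 0.190). In vehicle libraries it lay at 1.81 to 7.12 CPM, and TN-783 minus vehicle was -0.29 (95% interval -1.02 to 0.44). Of 9 tested fibroblast and meningeal genes 7 had lower estimates, with a median of -0.29 that moved to -0.11 without lean replicate 6 and the vehicle group, where 2 of 9 passed as lower (Col1a1 and Col1a2), against 2.73% of all genes. Col1a2, the partner chain, differed by -0.59 (SE 0.21) and Foxc1, a transcription factor of meningeal fibroblasts, by -0.48 (SE 0.23), while Dcn, a small proteoglycan, differed by 0.13 (SE 0.42). Slc26a2, which carries the sulfate needed for proteoglycans, was at 13.4 to 22.4 CPM in lean and 8.09 to 12.1 CPM in TN-783 libraries, without overlap (log2 -0.76, SE 0.18).

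Igf1, insulin-like growth factor 1, was named after its values were seen. It was at 5.53 to 7.23 CPM in lean libraries (median 6.41), 4.37 to 7.94 CPM in vehicle libraries (median 5.92) and 2.64 to 4.21 CPM in TN-783 libraries (median 3.63). Treated mice thus lay below both other groups in every library. The log2 difference was -0.79 from lean (SE 0.22, edgeR adjusted p = 0.495) and -0.70 from vehicle (95% interval -1.17 to -0.23, adjusted p = 1.00), while vehicle minus lean was -0.09. Wnt5a, a Wnt ligand named in the same way, lay at 20.3 to 29.0 CPM in lean and 10.3 to 19.0 CPM in TN-783 libraries (log2 -0.67, SE 0.18), and at 9.26 to 22.1 CPM in vehicle libraries.

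**Figure D3:**
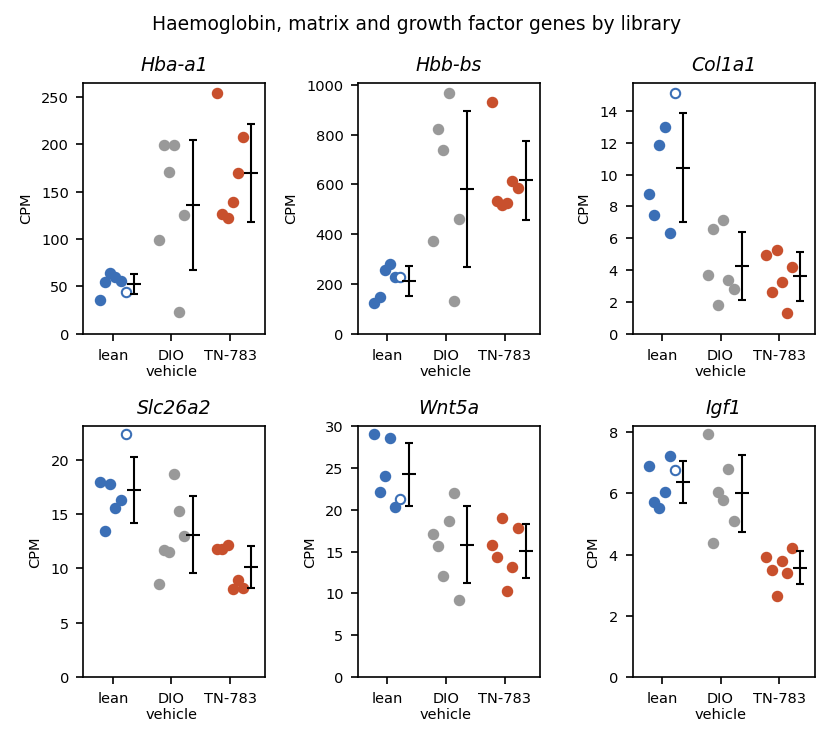
Each panel shows the CPM of a gene by library in the 3 groups, with the mean and SD as a black bar and lean replicate 6 as an open circle. Hba-a1 and Hbb-bs lie higher and Col1a1, Slc26a2, Wnt5a and Igf1 lower in all 6 TN-783 libraries than in all 6 lean libraries; for Igf1 the vehicle libraries, at 4.37 to 7.94 CPM, lie above the treated ones.

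Dync2h1, Tia1 and Tpm3-rs7 were the other lower genes named by their small p. Dync2h1, the heavy chain of the motor for retrograde transport in cilia, was at 49.4 to 77.8 CPM in lean and 32.5 to 59.6 CPM in TN-783 libraries (log2 -0.55, SE 0.13, edgeR adjusted p = 0.406). Tia1, an RNA-binding protein of stress granules, was at 28.1 to 48.9 CPM and 17.4 to 30.0 CPM (log2 -0.60, SE 0.15). Tpm3-rs7, a tropomyosin-related sequence whose reads could be shared with Tpm3, was at 30.2 to 48.9 CPM and 22.7 to 38.1 CPM (log2 -0.62, SE 0.16). Malat1, a long nuclear RNA also named with its values known, was at 885 to 1347 CPM in lean, 564 to 941 CPM in TN-783 and 518 to 1107 CPM in vehicle libraries (log2 from lean -0.62, SE 0.16, edgeR adjusted p = 0.421). All 4 lay below the lean median in every TN-783 library.

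Feeding peptides did not share a direction. Of 6 appetite-promoting peptide genes tested, 5 had lower estimates and 1 higher. Pmch was at 96.2 to 125 CPM in lean libraries (median 111), 111 to 196 CPM in TN-783 libraries (median 149) and 132 to 220 CPM in vehicle libraries (median 178). Its log2 difference from lean was 0.42 (SE 0.13, edgeR adjusted p = 0.567), and TN-783 minus vehicle was -0.24 (95% interval -0.50 to 0.02). It passed without lean replicate 6 and the vehicle group (0.43, adjusted p = 0.0304). Npy, neuropeptide Y, was at 20.3 to 117 CPM in lean and 15.6 to 49.4 CPM in TN-783 libraries, a log2 difference of -0.77 (SE 0.33). Lean replicate 4 held the highest value, and without it the difference was -0.41.

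Agrp, the agouti-related peptide gene, was at 7.64 to 18.2 CPM in lean libraries (median 11.4), 1.08 to 19.2 CPM in TN-783 libraries (median 8.26) and 0.926 to 8.01 CPM in vehicle libraries (median 3.53). Its log2 difference from lean was -0.26 for TN-783 mice (95% interval -1.03 to 0.50) and -1.38 for vehicle mice (edgeR adjusted p = 0.301). The TN-783 difference was -0.57 without TN-783 replicate 1 and -0.06 without TN-783 replicate 4. TN-783 minus vehicle was 1.11 (95% interval 0.21 to 2.02, adjusted p = 1.00), with TN-783 replicate 4 as low as the lowest vehicle libraries. Hcrt, the orexin gene, had a log2 difference of -0.14 from lean (SE 0.34). It was 0.11 without lean replicate 2 and 0.016 without TN-783 replicate 1. Among 8 satiety peptide genes tested, 4 had higher estimates. Cartpt was at 50.0 to 71.8 CPM in lean and 51.8 to 88.4 CPM in TN-783 libraries (log2 0.20, SE 0.12). Pomc was at 26.0 to 48.9 CPM in lean and 10.3 to 156 CPM in TN-783 libraries, and its log2 difference of 0.73 had a 95% interval of -2.21 to 3.68. It was 0.14 without TN-783 replicate 5. Pomc is also made in the pituitary, and 2 vehicle libraries reached 3275 and 6939 CPM. Those libraries were in the fit that gave the interval, so it does not measure spread among lean and TN-783 mice alone. With the vehicle group and lean replicate 6 left out, the Pomc difference was 0.68 (SE 0.62). In CPM of all features before filtering, the pituitary hormone genes Prl, Gh and Cga reached 4.53, 6.42 and 18.5 in lean libraries. In TN-783 libraries they reached 29.9, 22.6 and 31.4. The part of pituitary tissue in the Pomc difference was not tested.

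Posterior pituitary hormones and other peptides had mostly lower estimates. In this list 10 of 14 genes were lower, with a median log2 difference of -0.18, and 5 had an unadjusted p under 0.05. The median was -0.28 without lean replicate 6 and -0.10 without TN-783 replicate 1. Sst and Pdyn, 2 of 13 tested, passed as lower without lean replicate 6 and the vehicle group, against 2.73% of all genes. The omitted library was the lowest control for this list (mean log2 CPM 4.65, lean median 5.18), which favours calls as lower. Oxt, oxytocin, was at 65.6 to 170 CPM in lean libraries (median 126), 23.6 to 90.4 CPM in TN-783 libraries (median 72.0) and 41.2 to 93.8 CPM in vehicle libraries (median 65.2). Its log2 difference was -0.91 from lean (SE 0.29, edgeR adjusted p = 0.576) and 0.03 from vehicle (95% interval -0.59 to 0.66). Avp, vasopressin, was at 34.4 to 178 CPM in lean and 6.89 to 48.9 CPM in TN-783 libraries, a log2 difference of -1.19 (SE 0.45), with lean replicate 4 the highest and -0.75 without it. Hdc, the histamine-synthesising enzyme, was at 28.4 to 57.1 CPM and 18.3 to 39.4 CPM (log2 -0.53, SE 0.18). Sst, somatostatin, and Pdyn, prodynorphin, differed by -0.36 (SE 0.16) and -0.59 (SE 0.25). All 6 TN-783 libraries lay below the lean median for Oxt, Avp, Sst and Pdyn.

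Receptors for feeding signals had lower estimates in 15 of 21 genes, with a median of -0.06 that was -0.15 without lean replicate 6. With the vehicle group also out 1 of 21 passed as higher, near the 3.73% of all genes. It was Ramp1, a receptor activity-modifying protein. Glp1r, the receptor for glucagon-like peptide 1, was at 2.08 to 16.9 CPM in lean and 2.64 to 8.27 CPM in TN-783 libraries (log2 -0.72, SE 0.32). Calcr, the calcitonin receptor, was at 10.4 to 29.0 CPM in lean, 11.9 to 27.2 CPM in TN-783 and 8.47 to 18.2 CPM in vehicle libraries. Its estimate was -0.17 (SE 0.23) from lean and 0.59 (95% interval 0.07 to 1.11) from vehicle. Mc4r, the melanocortin receptor, differed by -0.20 (SE 0.24) and Adipor2, an adiponectin receptor, by 0.27 (SE 0.12).

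**Figure D4:**
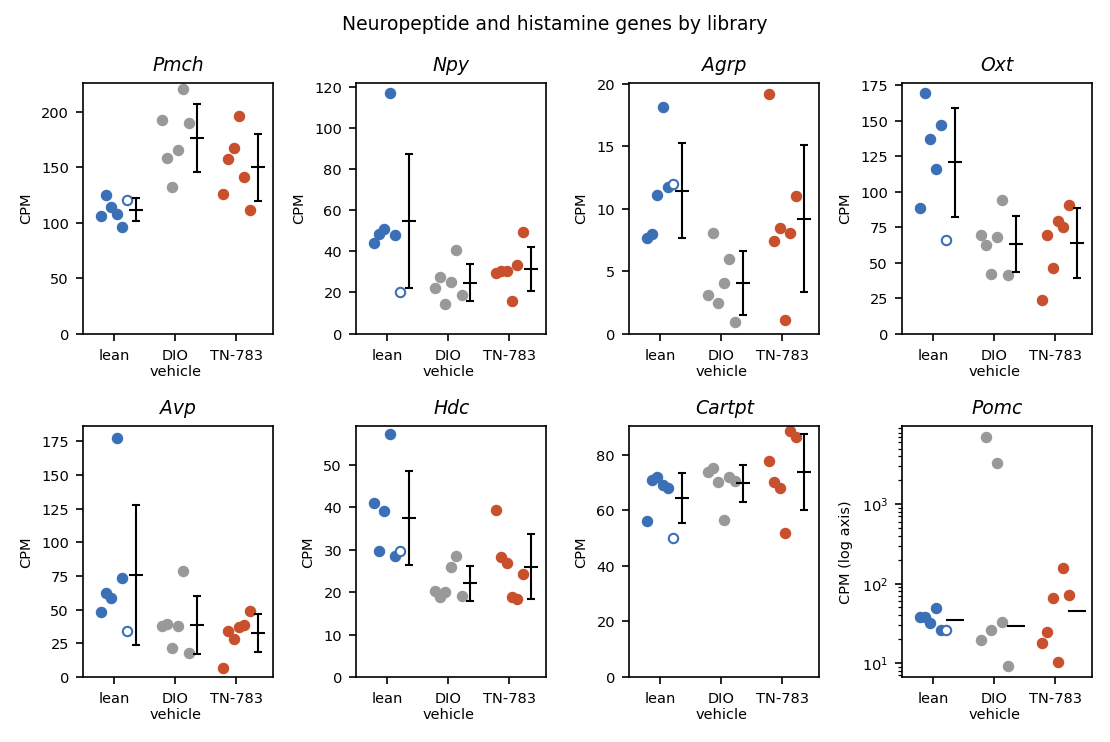
Each panel shows the CPM of a peptide or enzyme gene by library in the 3 groups, with the mean and SD as a black bar (the median alone for Pomc, whose axis is logarithmic) and lean replicate 6 as an open circle. Pmch lies at 111 to 196 CPM in TN-783 mice against 96.2 to 125 CPM in lean mice, and Agrp in TN-783 mice spans 1.08 to 19.2 CPM, close to the range of the lean and vehicle libraries combined (0.926 to 18.2 CPM).

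Genes of the drug's own pathway were sparse. Summed over 6 libraries, Nlrp3 had 5.12 estimated counts in lean and 4.01 in TN-783 mice, Il1b had 2.02 and 6, Casp1 had 11 and 9, Pycard had 39.7 and 38.9, and Gsdmd had 6 and 5. All 5 failed the expression filter, so a difference in them was not detectable at this depth; without a filter their standard errors were between 0.42 and 1.01 and 0 of 5 were called. Il18, the cytokine matured by caspase-1, was at 22.8 to 38.0 CPM in lean libraries (median 25.2), 25.0 to 36.2 CPM in TN-783 libraries (median 33.0) and 24.6 to 40.9 CPM in vehicle libraries (median 36.8). Its log2 difference from lean was 0.26 (95% interval -0.04 to 0.56, edgeR adjusted p = 0.627), and lean replicate 6 was the highest control. Of the 5 tested inflammasome genes 4 had higher estimates; Txnip, a redox protein that binds NLRP3, differed by 0.38 (SE 0.41) from lean and -0.81 (SE 0.38) from vehicle. None of the 5 passed in the 3-group fit. Without lean replicate 6 and the vehicle group 2 of 5 passed as higher, against 3.73% of all genes: Txnip (log2 0.58, SE 0.18, edgeR adjusted p = 0.0439) and Nek7, a kinase that binds NLRP3 (0.46, SE 0.11, adjusted p = 0.0198). Il18 did not pass there (0.37, SE 0.13, adjusted p = 0.0728).

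No gene of the NF-kB and cytokine, interferon-response or MHC lists passed in the 3-group edgeR fit, and 2 NF-kB and cytokine genes and 1 MHC gene had an unadjusted p under 0.05. NF-kB and cytokine genes had 2 of 5 higher, where Vcam1, an adhesion molecule, differed by 0.29 (SE 0.11) and Rela, an NF-kB subunit, by -0.07 (SE 0.20). Interferon-response genes had 6 of 14 higher, with a median of -0.08 that changed sign in 5 of 32 alternatives (0.06 without lean replicate 6); Isg15, a ubiquitin-like protein induced by interferon, differed by -0.40 (SE 0.36). MHC antigen presentation genes had 5 of 7 higher, with a median of 0.32. Among them H2-K1, a class I heavy chain, was at 31.5 to 47.4 CPM in lean and 36.8 to 58.2 CPM in TN-783 libraries (log2 0.38, SE 0.16, edgeR adjusted p = 0.611). H2-K1, 1 of 6 MHC genes, passed as higher without lean replicate 6 and the vehicle group (0.46, SE 0.13, edgeR adjusted p = 0.0290). In that fit 0 of 5 NF-kB and cytokine and 0 of 12 interferon-response genes passed. Of all genes 3.73% passed there as higher and 2.73% as lower, so counts this small do not set the lists apart.

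Microglial genes were measured in both states. Of 18 homeostatic microglia genes 14 had higher estimates, with a median of 0.11 that was 0.03 without TN-783 replicate 4; Cx3cr1, the fractalkine receptor, differed by -0.11 (SE 0.14) and P2ry12, a purine receptor, by 0.32 (SE 0.21). Aif1, which encodes IBA1, was at 2.71 to 17.7 CPM in lean and 5.26 to 11.9 CPM in TN-783 libraries. Its log2 difference was 0.33 (SE 0.33) with lean replicate 6, the highest of the 12 libraries, and 0.78 without it. Disease-associated microglia genes had 8 of 13 higher; Apoe, an apolipoprotein made mainly by astrocytes in healthy brain, was without overlap (log2 0.21, SE 0.09), Axl differed by 0.34 (SE 0.15) and Spp1, osteopontin, by -0.39 (SE 0.53). Of the disease-associated genes 1 of 12 (Fth1, a ferritin chain) passed as higher without lean replicate 6 and the vehicle group. Of the homeostatic ones 0 of 18 passed there. Over all genes 3.73% passed as higher, so these counts do not set the 2 lists apart.

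Astrocyte and oligodendrocyte genes had mostly higher estimates. Astrocyte identity genes were higher in 17 of 19, with a median of 0.22 that was 0.15 without TN-783 replicate 4. Gja1, Fgfr3, Atp1b2 and S100b, 4 of 19, passed as higher without lean replicate 6 and the vehicle group, against 3.73% of all genes. The omitted library was the highest control for this list (mean log2 CPM 8.64, lean median 8.37), which favours such calls. Slc1a3, a glutamate transporter, was at 482 to 579 CPM in lean and 582 to 851 CPM in TN-783 libraries, without overlap (log2 0.26, SE 0.11, edgeR adjusted p = 0.611). Sox9, a transcription factor of the lineage, was among the 2 that were lower, at 278 to 360 CPM and 240 to 317 CPM (log2 -0.29, SE 0.10). Reactive astrocyte genes had 4 of 7 higher. Gfap, the intermediate filament of reactive astrocytes, was at 66.8 to 155 CPM in lean and 65.0 to 99.9 CPM in TN-783 libraries; its log2 difference was -0.17 (SE 0.19) with lean replicate 6 and 0.029 without it.

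Mature oligodendrocyte genes were higher in 15 of 18, with a median of 0.22, and 6 of 18 passed as higher without lean replicate 6 and the vehicle group, against 3.73% of all genes. The omitted library was again the highest control (mean log2 CPM over the list 6.73, lean median 6.34), which favours such calls. Mbp, a main myelin protein, differed by 0.57 (SE 0.32), and Aspa, which releases acetate for myelin lipids, lay at 8.69 to 15.6 CPM in lean and 11.8 to 18.7 CPM in TN-783 libraries (log2 0.50, SE 0.18). Brain endothelial genes were higher in 13 of 17. Slc2a1, the glucose transporter of the blood-brain barrier, was at 50.8 to 86.2 CPM in lean and 81.2 to 137 CPM in TN-783 libraries (log2 0.44, SE 0.16), while Cldn5, its main tight junction protein, was at 6.77 to 19.3 CPM and 4.68 to 12.7 CPM (log2 -0.65, SE 0.28) and Kdr, a VEGF receptor, differed by -0.49 (SE 0.18). These last 2 of 17 endothelial genes passed as lower without lean replicate 6 and the vehicle group, against 2.73% of all genes, and 0 passed as higher. General neuronal genes were lower in 12 of 18, with a median of -0.09; Elavl4, a neuronal RNA-binding protein, was at 171 to 296 CPM and 165 to 256 CPM (log2 -0.32, SE 0.14), and lean replicate 6 held the lowest lean value. Without that library the median was -0.14, and with the vehicle group also out 4 of 18 passed as lower (Elavl4, Syt1, Tubb3 and Uchl1), against 2.73% of all genes. It was the lowest control for the neuronal list (mean log2 CPM 7.73, lean median 8.04), which favours calls as lower. The cells behind these lists were not counted, and the part of cell composition in them was not tested.

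Genes of translation and respiration had small estimates of mostly one direction, which single libraries moved. All 30 ribosomal protein genes tested were higher, with a median log2 difference of 0.22 that became 0.39 without lean replicate 6 and the vehicle group, where 18 of 30 passed as higher, against 3.73% of all genes. Mean log2 CPM over the list was 9.60 in lean replicate 6, above the maximum of the TN-783 (9.48) and vehicle libraries (9.45). Leaving it out therefore favours such calls, and their share does not set this list apart. The median was 0.13 without TN-783 replicate 1 and 0.03 with 1 surrogate variable. Rpl18, the member with the smallest p, was at 75.7 to 197 CPM in lean libraries (median 96.6) and 127 to 222 CPM in TN-783 libraries (median 138), a log2 difference of 0.45 (SE 0.22, edgeR adjusted p = 0.618). The list's share of counts was 1.76% ± 0.431 (SD, n = 6) in lean and 1.97% ± 0.266 (SD, n = 6) in TN-783 mice (exact permutation p = 0.372, adjusted 0.521). Without lean replicate 6 the difference was 0.377 percentage points with an adjusted exact permutation p of 0.0455. Nuclear genes of oxidative phosphorylation were higher in 31 of 32, with a median of 0.17 that became 0.29 without lean replicate 6 and the vehicle group, where 12 of 32 passed as higher. Here too that library was the highest control, with a mean log2 CPM over the list of 7.96 (lean median 7.40). The median difference was 0.11 without TN-783 replicate 1 and 0.0066 with 1 surrogate variable. Genes encoded in mitochondrial DNA were higher in 12 of 13, with a median of 0.22; mt-Atp6, an ATP synthase subunit, was at 6210 to 8468 CPM in lean and 7294 to 11592 CPM in TN-783 libraries (log2 0.32, SE 0.13).

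Metabolic and stress lists completed the comparison. Fatty acid oxidation genes were higher in 17 of 20, with a median of 0.18. Fatty acid synthesis genes were higher in 12 of 15; Srebf1, their transcription factor, was at 9.52 to 21.4 CPM in lean and 19.1 to 35.1 CPM in TN-783 libraries (log2 0.48, SE 0.18). Cholesterol synthesis genes were lower in 14 of 22, with a median of -0.02 that lay above 0 with upper quartile scaling and without lean replicate 2. Heat shock genes were lower in 14 of 20, with a median of -0.13; Hsp90aa1, a cytosolic chaperone, was at 1980 to 2760 CPM and 1483 to 2251 CPM (log2 -0.28, SE 0.11). ER stress genes were lower in 16 of 22, with a median of -0.12; Calr, a chaperone of the endoplasmic reticulum, was at 73.4 to 94.0 CPM and 70.5 to 80.8 CPM (log2 -0.21, SE 0.09). In the 3-group edgeR fit 0 genes of these lists passed. With lean replicate 6 and the vehicle group left out, 3.73% of all genes passed as higher and 2.73% as lower. There 2 of 20 fatty acid oxidation genes (Hadh and Hadhb) passed as higher. So did 4 of 15 fatty acid synthesis genes (Scd2, Fads1, Fads2 and Me1). Over these lists the omitted library was the highest control, with mean log2 CPM of 4.64 for oxidation (lean median 4.29) and 6.33 for synthesis (lean median 6.19). Hspa4l, 1 of 20 heat shock genes, and Pdia3, 1 of 22 ER stress genes, passed as lower, which is near the share of all genes.

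**Figure D5:**
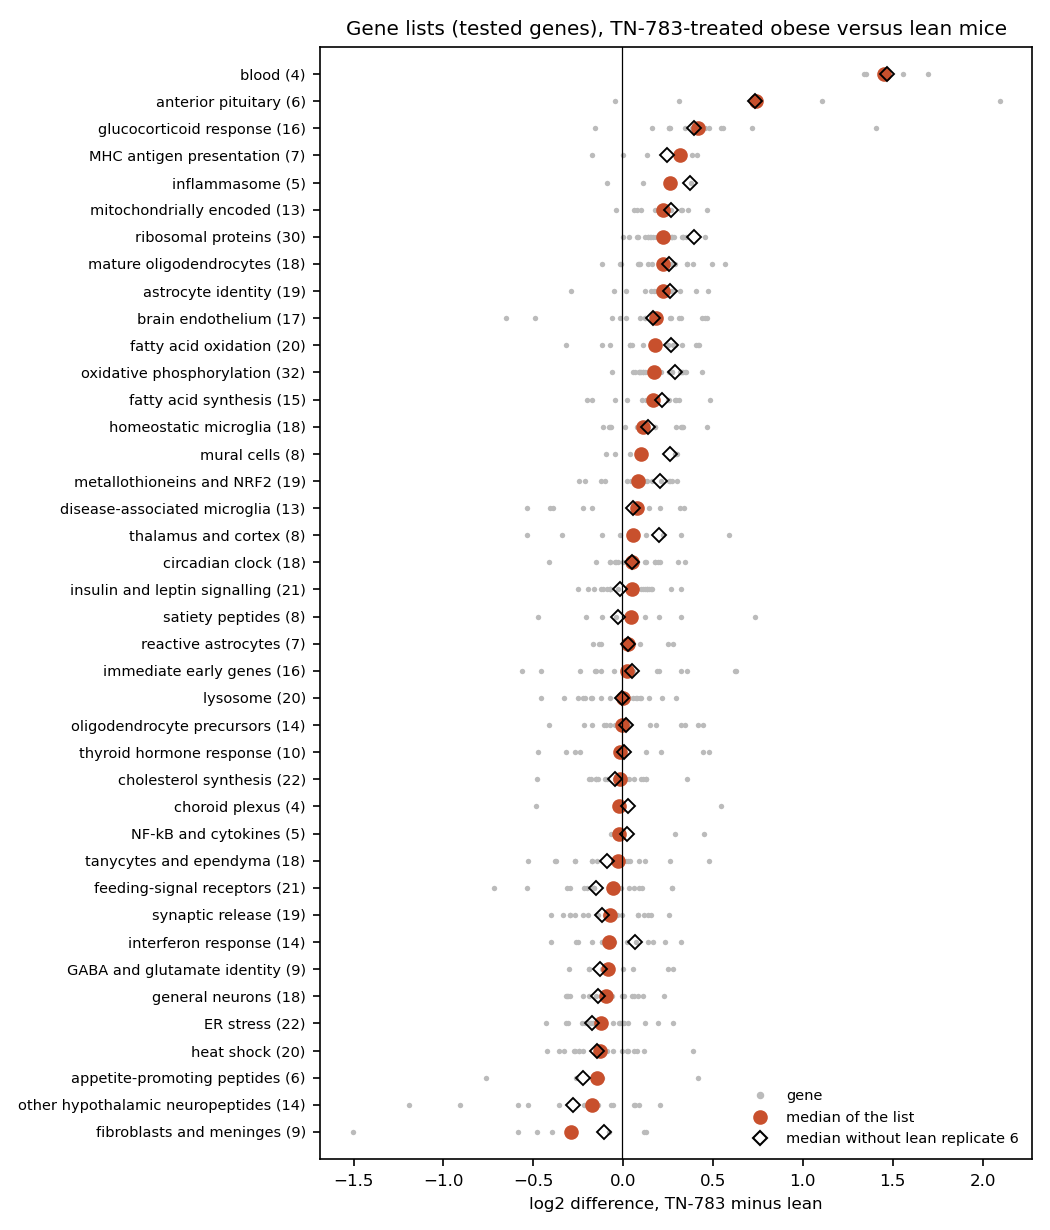
Each row is a list with its number of tested genes; grey points are genes, red points the list median and open diamonds the median without lean replicate 6, on the log2 scale of TN-783 minus lean, and the vertical line is the median of all genes (-0.00). Blood, anterior pituitary and glucocorticoid-response genes lie farthest to the right (medians 1.45, 0.74 and 0.42) and fibroblast and meningeal genes farthest to the left (-0.29).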

How the data were processed

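Bulk RNA of 18 hypothalamus samples was sequenced from the poly(A) end; unique molecular identifiers were added before 18 cycles of PCR, per the labels' protocols. The labels call the samples independent biological ones, and p-values therefore measure spread between animals. Tools in the submitters' processing notes are Salmon 1.10.1, STAR 2.7.9a, R 4.5.1 and edgeR 4.6.2, with the build GRCm39 and no roles stated. The sources used here do not give the annotation, strand use or the collapsing of identifiers. The authors deposited their estimated counts for 56980 features; 19684 had only zeros, and 12.0% of values were not whole numbers (tolerance 0). Scaling factors deposited by the authors (a ratio of 0.936 to 1.08) and their deposited RNA integrity score were used only in alternatives and checks. Deposited log2 values were not used. Counts are of 3' ends, so levels of different genes are not compared.

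Estimated counts were rounded to whole numbers, and genes were kept by edgeR's filterByExpr (minimum count 10), which left 11835. All 3 groups entered one fit in edgeR 4.0.16 (R 4.3.3) with trimmed-mean (TMM) factors; its robust quasi-likelihood test had 15 residual degrees of freedom, a common biological coefficient of variation of 0.169 and an adjusted p threshold of 0.05. Standard errors are the log2 difference divided by the square root of F. CPM values use TMM-scaled library sizes of the genes kept. The check of marker genes used the same factors with library totals of all features. Genes named were the 5 with the smallest p per direction, leaving out genes with only a model name (such as Gm49207), a fixed set of pathway and peptide genes, and the member with the smallest p of each of 40 lists; others are said to be named after their values were seen, and list members given as examples were also picked with values known. A few genes that this rule names are not reported here. The members, lists and tests were chosen with earlier results of these data known. Library measures (7) were compared by two-sided exact permutation tests over libraries. The edgeR test was tested on simulated data. Alternatives were DESeq2 1.42.0, limma 3.58.1 voom, sva 3.50.0, other filters and scalings, other sample sets and leaving out each library. The replicate numbers did not pair the TN-783 samples with those of either other group.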

Additional observations from a re-analysis of the deposited data

Results flagged for a closer look

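Values that stood far from the rest of their group of 6 by Dixon's test were found in 19 of 130 groups examined, where chance gives about 1 in 20. The ratio given for each is its gap to the nearest value over the range of the group. Lean replicate 6 held 9 of the gene values. It was highest in its group for Il18 (38.0 CPM, ratio 0.788), Gfap (155 CPM, 0.747), Aif1 (17.7 CPM, 0.734), Aspa (15.6 CPM, 0.755), Atp5j2 (330.0 CPM, 0.848) and Hsd11b1 (15.1 CPM, 0.647). It was lowest for Prlr (19.8 CPM, 0.717), Elavl4 (171 CPM, 0.796) and Calr (73.4 CPM, 0.691), and its place on the first principal component of the 12 libraries had a ratio of 0.719 (-36.3).

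Lean replicate 4 was highest for Npy (117 CPM, ratio 0.684) and Avp (178 CPM, 0.726) and lowest for Srebf1 (9.52 CPM, 0.719). TN-783 replicate 6 was lowest for Il18 (25.0 CPM, 0.694) and highest for Tpm3-rs7 (38.1 CPM, 0.791). TN-783 replicate 4 was highest for Slc2a1 (137 CPM, 0.847) and TN-783 replicate 1 for Hbb-bs (932 CPM, 0.769). The totals of lean replicate 2 (3695780 counts, 0.694) and TN-783 replicate 6 (3589790 counts, 0.796) were also far above the rest of their groups.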

How the results depend on the processing

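For TN-783 versus lean, the count of 0 calls became 27 with no filter on low counts (13 higher, 14 lower, of 37272), 5 with the 2 compared groups alone, 2 with RNA integrity as a covariate, 4 with voom and 11 with DESeq2, and 748 with the 2 groups alone and lean replicate 6 left out, an alternative added after the data were seen. Leaving out single libraries gave 0 to 5 (5 without vehicle replicate 5, 1 each without lean replicate 5 and TN-783 replicate 3). The replicate block gave 1 call, Sgk1 (1.44, edgeR adjusted p = 0.0176). Same-numbered TN-783 and lean libraries deviated together with correlations of -0.40 to 0.09, none a best match, so there the numbers share a label only. For vehicle and lean libraries, replicates 4 and 6 were best matches (0.234 and 0.385), and the others lay at -0.125 to 0.143. TN-783 versus vehicle gave 6 calls with no filter. Vehicle versus lean, with 1 call, gave 126 with no filter, 0 at 1 CPM or more in 6 libraries, 0 without vehicle replicates 2 and 4, 0 with a surrogate variable, 146 with voom, 21 with DESeq2, 0 to 346 without single libraries (346 without lean replicate 6) and 522 without lean replicate 6 and TN-783 replicate 4, also added later.

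Non-overlapping genes numbered 17 higher with no scaling factors, ranged from 30 to 255 higher and 25 to 225 lower without single libraries, and were 265 and 208 with the 2 groups and no lean replicate 6, and 274 and 255 with lean replicate 6 and TN-783 replicate 4 left out. Among the named genes and library measures, estimates that reversed with a library left out were those of Hcrt (-0.28 to 0.11; 0.11 without lean replicate 2 and 0.016 without TN-783 replicate 1), Gfap (-0.26 to 0.029; 0.029 without lean replicate 6, 0.031 with the vehicle group also out and 0.013 with TN-783 replicate 4 also out) and total counts (-366675 to 104631, the last without lean replicate 2). Printed list medians that changed sign with a library left out were those of interferon-response (-0.13 to 0.06), immediate early (-0.07 to 0.09) and cholesterol synthesis genes (-0.05 to 0.0036). The ribosomal share passed without lean replicate 6 (0.377 percentage points), the library with the highest mean over the ribosomal list. The cause was not tested. For 64 genes under 32 alternatives, the 2 added ones apart, 2014 of 2048 estimates kept their direction and side of the threshold, 31 newly passed and 3 reversed. Across scalings the median of all genes lay between -0.07 and 0.02. At these library totals, genes with a few counts, such as Nlrp3, could not be compared.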

Other observations

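Some other gene groups lay near the background of 49.1% higher estimates, while synaptic release genes, with 31.6% higher, lay below it. Oligodendrocyte precursor genes were higher in 7 of 14, circadian clock genes in 10 of 18, insulin and leptin signalling genes in 11 of 21, lysosomal genes in 10 of 20 and thyroid hormone response genes in 4 of 10, and 0 of them passed in the 3-group edgeR fit. Without lean replicate 6 and the vehicle group, where 3.73% of all genes passed as higher and 2.73% as lower, 2 of 14 oligodendrocyte precursor genes (Olig1 and Bcas1) passed as higher and 2 of 20 lysosomal genes (Neu1 and Grn) as lower. Of 10 thyroid hormone response genes Klf9 passed there as higher and Nrgn and Trh as lower, and 0 clock, insulin and leptin signalling genes passed. Arntl, the clock gene that encodes BMAL1, had the smallest p of its list and was at 20.6 to 32.4 CPM in lean, 12.6 to 26.8 CPM in TN-783 and 19.1 to 31.3 CPM in vehicle libraries (log2 from lean -0.41, SE 0.17). Synaptic release genes were lower in 13 of 19, and Syt1 and Sv2a passed as lower in the same reduced fit; Sv2b, a synaptic vesicle protein, was at 36.4 to 47.0 CPM in lean and 29.1 to 38.3 CPM in TN-783 libraries (log2 -0.29, SE 0.13).

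The genes without overlap between TN-783 and lean mice held other members that no list contains, named here after their values were seen. Higher in all 6 TN-783 libraries were Mcl1, an inhibitor of apoptosis (log2 0.35, SE 0.11), Hsd17b11, a lipid droplet dehydrogenase (0.42, SE 0.11), and Gpc5, a glypican made by astrocytes (0.45, SE 0.13). Lower in all 6 were Ccnt2, a cyclin of the transcription elongation kinase (-0.43, SE 0.11), Jarid2, a cofactor of Polycomb repressive complex (-0.43, SE 0.13), Slc7a8, an amino acid transporter (-0.56, SE 0.18), and Sox2, a transcription factor of neural stem cells and glia (-0.25, SE 0.08). Their vehicle minus lean differences were 0.29, 0.25, 0.35, -0.37, -0.39, -0.22 and -0.28 in the same order, against the same lean libraries.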
